A study of Mus musculus with 27 samples.

Results

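The 44 genes described here encode proteins of the lysosome, together with Gpnmb and part of the V-ATPase, out of 55367 genes in the deposited count table. They fall into 12 proteases, 5 glycosidases, 5 proteins that handle lipids, 10 membrane proteins, 6 subunits of the V-ATPase and 6 regulators. All 44 were found in the table by symbol. The genes were selected on values of these same libraries, because several were higher with siP300 or siComb and lower with TSA. The comparisons of those 3 groups with their controls are therefore given below as descriptions, with no test.

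Lysosomes are acidic compartments in which hydrolases degrade proteins, sugars and lipids that arrive by endocytosis and autophagy. The V-ATPase pumps protons into the lumen, and heavily glycosylated membrane proteins such as Lamp1 and Lamp2 line the inside of the membrane. Transcription factors of the MiT family, Tfeb, Tfe3, Tfec and Mitf, bind E-box motifs in the promoters of many lysosomal genes, and Flcn, acting through the Rag GTPases, helps to keep them in the cytoplasm of fed cells. Gpnmb is a glycoprotein of melanosomes and lysosomes that is widely used as a marker of lysosomal stress and of lipid-laden macrophages. In the preimplantation mouse embryo, lysosomes take part in the clearance of maternal proteins and in the uptake of material from the medium.

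The study measured polyadenylated RNA of wild-type mouse morulae in 27 libraries, 3 in each of 9 groups, each library made from a pool of 15 to 20 embryos. All embryos were grown in KSOM medium and collected as morulae at E2.75, where E stands for embryonic day. In the inhibitor family, embryos received Vehicle, SAHA (500 nM in the file headers), A485 (10 uM) or TSA (50 nM) from E2.5 on. SAHA and TSA are hydroxamates that inhibit histone deacetylases, whereas A485 inhibits the acetyltransferases p300 and CBP. In the siRNA family, zygotes (E0.5) were injected with siControl, siP300, siKat6a, siKat6b or a mixture named siComb, whose content the labels do not give. The controls of the siRNA family were thus injected and those of the inhibitor family were not, so each treated group is set against its own control only. The pools of a group are labelled biological replicates, with nothing said on whether they were collected apart. The p-values thus reflect only how far such pools differ, possibly for technical reasons. The spread behind them is estimated over all libraries of a family, not within 1 group, although replicates of A485 and siP300 differed more than those of their controls. In pools of whole embryos, fewer cells of a type and less RNA per cell cannot be told apart.

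Libraries held 7557591 to 11988857 counts. Levels below are in CPM, counts relative to library size after edgeR's TMM scaling within a family. Levels per kilobase and those of MERVL are relative to library size without that scaling. The order in a list of 3 values is that of replicates 1 to 3. Several libraries stood apart from their group in the RNA of MERVL, an endogenous retrovirus transcribed at the 2-cell stage. Vehicle replicate 3 held 245 CPM of the internal part of MERVL against 12.5 and 14.3 CPM in the other Vehicle libraries. In the siRNA family, siP300 2, siKat6b 1, siKat6b 3 and siComb 2 held 899 to 990 CPM. The other libraries of those groups held 35.0 to 158 CPM. All of these were above siControl, which held 21.2 to 32.8 CPM. Mitochondrially encoded genes took 4.86 to 6.99% of counts in siP300 and siComb against 1.94 to 2.45% in siControl, and 1.61 to 2.16% in SAHA, 2.36 to 2.62% in A485 and 2.51 to 3.57% in TSA against 0.997 to 1.20% in Vehicle. Their part in the results below was not tested. Of the targeted genes, Ep300 was at 17.9, 12.2 and 28.8 CPM in siP300 and 25.2, 15.4 and 31.2 CPM in siComb against 24.01, 24.9 and 30.6 CPM in siControl, so that siP300 3 and siComb 1 and 3 lay within or above the range of the controls. Kat6a (14.1, 11.1 and 13.5 CPM in siKat6a against 16.7 to 19.2 CPM in siControl) and Kat6b (70.4 to 83.2 CPM in siKat6b against 106 to 121 CPM) were below their controls in all 3 libraries. In siComb, Kat6a was at 12.4, 9.93 and 11.9 CPM and Kat6b at 53.9, 32.6 and 82.7 CPM, also below every siControl library. Kat6b was at 109, 53.5 and 83.6 CPM in siP300. The groups are called by their labels here.

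The promoters of these genes are shown first because 4 of the regulators are E-box binding factors. RefSeq promoters on GRCm38.p6, from 250 bases before to 50 bases after the start of transcription, were found for 36 of the 44 genes. The E-box CACGTG, which reads the same on both strands, occurred in 11 of the 36 (30.6%) against 8.09% of the 27025 genes in the table. With its preceding T (TCACGTG, or CACGTGA on the other strand) it occurred in 9 of 36 (25.0%) against 4.29%, and the longer TCACGTGA in 6 of 36 (16.7%) against 1.12%. The M-box TCATGTG, searched for on both strands, occurred in 6 of 36 (16.7%) against 4.31%. These motifs overlap one another by their letters, and a match is a description of the sequence, not a binding site. The CLEAR motif, a longer form known from lysosomal promoters, was searched for by exact letters and occurred in 0 of 36 and in 0.370% of the genes in the table. Stretches are shown for the 5 genes with at least 2 E-boxes in the window, and for Gpnmb, which has none, 5′ to 3′ on the gene's strand with E-boxes in capitals. All but that of Gla are the 100 bases before the start, and that of Gla runs from 250 to 151 bases before it.
Lamp1: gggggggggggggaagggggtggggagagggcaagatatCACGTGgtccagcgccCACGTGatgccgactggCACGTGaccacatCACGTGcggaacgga
Mcoln1: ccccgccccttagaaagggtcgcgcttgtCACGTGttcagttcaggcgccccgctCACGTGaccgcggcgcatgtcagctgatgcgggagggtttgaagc
Gla: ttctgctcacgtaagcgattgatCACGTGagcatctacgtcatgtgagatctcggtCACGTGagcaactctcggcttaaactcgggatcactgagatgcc
Ctsd: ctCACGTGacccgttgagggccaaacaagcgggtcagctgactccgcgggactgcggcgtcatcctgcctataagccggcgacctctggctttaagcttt
Ctsa: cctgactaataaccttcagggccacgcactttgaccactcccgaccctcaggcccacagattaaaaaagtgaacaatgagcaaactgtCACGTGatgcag
Gpnmb: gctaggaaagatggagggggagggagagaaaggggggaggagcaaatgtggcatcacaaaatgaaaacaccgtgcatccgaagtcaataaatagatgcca

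Their positions on GRCm38.p6 are chr8:13159061-13159160 (+ strand) for Lamp1, chr8:3500419-3500518 (+ strand) for Mcoln1, chrX:134601156-134601255 (- strand) for Gla, chr7:142387828-142387927 (- strand) for Ctsd, chr2:164833673-164833772 (+ strand) for Ctsa and chr6:49036418-49036517 (+ strand) for Gpnmb. The 4 E-boxes of the Lamp1 stretch begin 61, 45, 28 and 15 bases before the start. The stretches of Ctsd and Ctsa hold 1 of their 2 E-boxes each. The other begins 245 bases before the start in Ctsd and lies past the start, from base 6 of the transcript, in Ctsa. The other genes with an E-box were Atp6v0d1, Atp6v1a, Ctsf, Ctsl, Glb1 and Lgmn, with 1 each.

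Levels per kilobase of exon differed widely between the genes in control morulae. The length of a gene here is that of all its annotated exons joined, which can exceed that of its transcripts. The order of genes below depends on that choice. Without the length, Npc2 (839.9, 914 and 861 CPM in Vehicle) was above Lamp1 (656, 534 and 647 CPM). Cd63, a tetraspanin of late endosomes, led with 972 ± 49.02 CPM per kb in Vehicle (mean ± SD, n = 3) and 675 ± 55.1 CPM per kb in siControl. Lamp1 followed with 231 ± 25.9 and 195 ± 17.1 CPM per kb, then Npc2, a cholesterol carrier of the lumen, with 162 ± 6.795 and 133 ± 12.6 CPM per kb. The ranges of these 3 genes did not overlap one another in either control group. Farther down the order, neighbours such as Psap and Laptm4a in Vehicle (98.9 ± 14.1 and 95.3 ± 13.7 CPM per kb) did not differ beyond their spread. The membrane protein Cd68 was at 10.4 ± 1.82 CPM per kb in Vehicle and 2.72 ± 0.185 CPM per kb in siControl.

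Near the bottom of the order were the cathepsins Ctsf, Ctsk and Ctss, Gpnmb, and the MiT factors Mitf and Tfec, each with a mean under 1 CPM per kb in both control groups. Of the MiT factors, Tfeb was the most abundant, at 3.76 ± 0.238 CPM per kb in Vehicle and 4.38 ± 0.549 CPM per kb in siControl, and Tfe3 was at 2.36 ± 0.598 and 1.54 ± 0.3797 CPM per kb. Atp6v0d2, an osteoclast and macrophage form of a V-ATPase subunit, had no count in any control library. Atp6v0d2 and Tfec were left out of the tests for low counts in both families, and the other 42 genes were tested. Cd63 alone took 27.9% of the summed counts of the 44 genes over all libraries, and Cd63, Npc2, Ctsl and Lamp1 together took 50.7%.

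**Figure D1:**
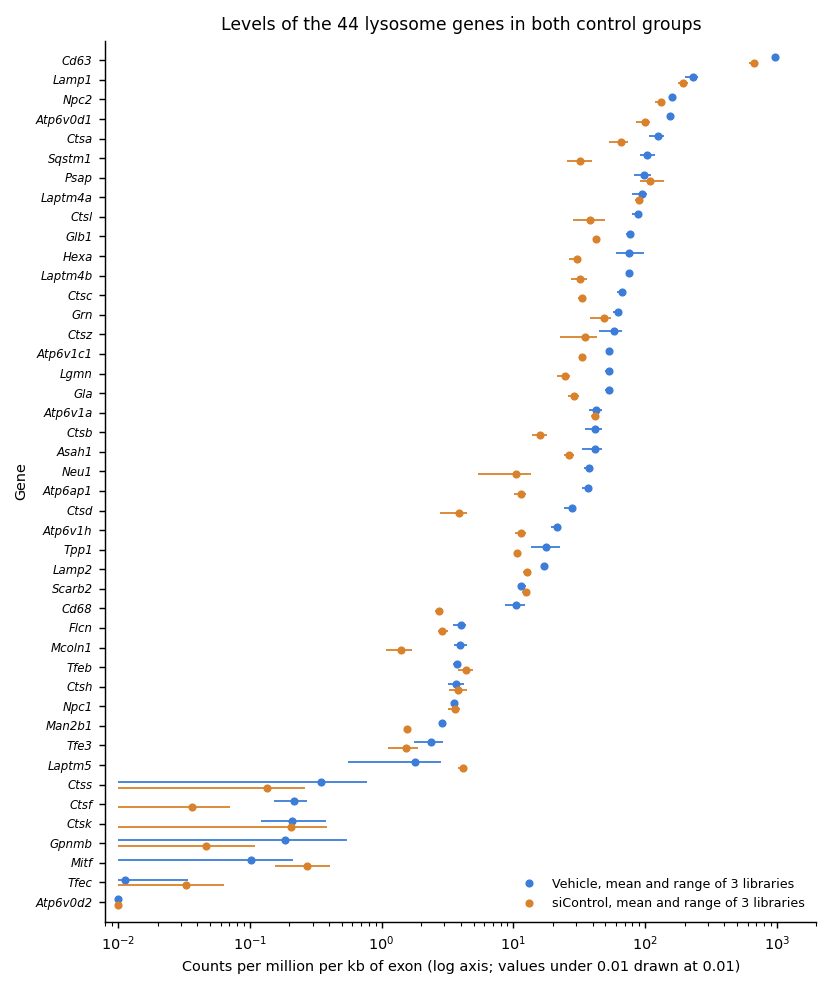
Levels of the 44 lysosome genes in Vehicle (blue) and siControl (orange), in CPM per kilobase of exon on a log axis, with points for the mean and lines for the range of 3 libraries. Cd63 is highest in both groups, and 7 genes at the bottom, from Ctss to Atp6v0d2, stay under 1 CPM per kb.

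SAHA lowered more of these genes than it raised. Relative to Vehicle, 17 of the 42 genes tested fell and 4 rose (edgeR quasi-likelihood test, Benjamini-Hochberg adjusted p under 0.05 over 18297 genes). Over all genes tested, 14.0% fell and 20.2% rose. The median log2 fold change was -0.29 over the 42 genes and 0.064 over all genes. The Vehicle libraries also served in the selection of the genes, through their comparison with TSA. By role, 5 of 12 proteases, 3 of 5 glycosidases, 2 of 5 lipid-handling proteins, 4 of 10 membrane proteins, 2 of 5 V-ATPase subunits tested and 1 of 5 regulators tested fell.

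Among the glycosidases, Neu1, the sialidase that removes sialic acids, was at 21.9, 22.4 and 20.01 CPM in SAHA and 144, 147 and 129 CPM in Vehicle. The 2 groups were far apart, and Neu1 fell with a log2 change of -2.71 ± 0.19 (± SE here and below, adjusted p = 2.98e-07). Hexa, the alpha subunit of the hexosaminidase that degrades GM2 ganglioside, was at 23.4, 21.1 and 31.9 CPM against 192, 119 and 139 CPM, a log2 change of -2.56 ± 0.30 (adjusted p = 2.34e-05). Glb1, the acid beta-galactosidase, was at 97.6, 124 and 129 CPM against 212, 237 and 238 CPM and fell with a log2 change of -0.97 ± 0.23 (adjusted p = 0.00465). No SAHA library reached a Vehicle library for any of the 3. Man2b1, an alpha-mannosidase, went the other way (36.3 ± 4.74 against 23.04 ± 1.34 CPM, mean ± SD, log2 0.66 ± 0.24, adjusted p = 0.0486), and Gla, the alpha-galactosidase, did not pass the test (log2 -0.23 ± 0.25).

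Among the proteases, Tpp1, a tripeptidyl peptidase, was at 24.1, 14.2 and 17.8 CPM against 114, 69.5 and 88.3 CPM and fell (log2 -2.28 ± 0.30, adjusted p = 6.29e-05). Ctsh, an aminopeptidase of the cathepsin family, was at 3.64, 4.001 and 6.16 CPM against 15.7, 18.7 and 14.4 CPM (log2 -1.82 ± 0.40, adjusted p = 0.0029). In both, every SAHA library lay below every Vehicle library. Ctsa, Ctsc and Ctsd also fell, with log2 changes between -1.22 and -0.82. Ctss was the protease that rose, from 0.474 ± 0.538 to 3.99 ± 2.59 CPM, a low level in both groups (log2 3.06 ± 0.85, adjusted p = 0.0127). Ctsb, Ctsf, Ctsk, Ctsl, Ctsz and Lgmn did not pass the test, with Ctsl at 675, 779 and 779.6 CPM against 606, 516 and 592 CPM (log2 0.38 ± 0.16, adjusted p = 0.084).

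Of the membrane proteins, Scarb2, which carries glucocerebrosidase to the lysosome, was at 18.2, 15.5 and 15.8 CPM in SAHA against 66.4, 77.5 and 69.7 CPM (log2 -2.11 ± 0.20, adjusted p = 4.58e-06). Cd63 was at 1702, 1647 and 1817 CPM against 3645, 3352 and 3662 CPM (log2 -1.04 ± 0.15, adjusted p = 0.000152). Both were well separated from Vehicle, and Laptm4b and Laptm5 fell too (log2 -0.72 ± 0.18 and -2.23 ± 0.59). Laptm4a rose (log2 0.42 ± 0.14, adjusted p = 0.0354), and Lamp1, Lamp2, Cd68, Mcoln1 and Gpnmb did not pass the test. Gpnmb was at 0.227, 0.364 and 0.769 CPM in SAHA and 3.51, 0 and 0 CPM in Vehicle, close to the limit of detection in both.

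Psap, the precursor of the saposins that present lipids to hydrolases, was at 123, 107 and 97.8 CPM in SAHA against 296, 282 and 229 CPM (log2 -1.30 ± 0.20, adjusted p = 0.000187). Npc2 fell less (log2 -0.47 ± 0.13, adjusted p = 0.0134), and Asah1, Npc1 and Grn did not pass the test. Of the V-ATPase, Atp6v1h, the regulatory H subunit, was at 100.1, 117 and 121 CPM against 208, 188 and 224 CPM (log2 -0.88 ± 0.18, adjusted p = 0.00207), and the accessory subunit Atp6ap1 fell from 109.9 ± 9.13 to 58.1 ± 2.39 CPM (log2 -0.92 ± 0.23). Atp6v1a, Atp6v1c1 and Atp6v0d1 did not pass the test.

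Among the regulators, Sqstm1 (p62), the autophagy receptor and itself a known MiT target, was at 159.99, 173 and 152 CPM in SAHA against 339, 303 and 401 CPM (log2 -1.11 ± 0.14, adjusted p = 4.40e-05). Tfeb moved the other way, at 39.00, 29.5 and 38.7 CPM against 21.03, 19.7 and 22.7 CPM (log2 0.75 ± 0.25, adjusted p = 0.0286). No SAHA library of Tfeb overlapped Vehicle. Tfe3 (17.5, 24.4 and 15.6 against 26.8, 21.7 and 16.4 CPM), Mitf and Flcn did not pass the test. In the same libraries the 2-cell markers summed to 3463 to 6689 CPM in SAHA against 2.77 to 380 CPM in Vehicle, and the markers of the morula to 349 to 462 against 957 to 1097 CPM. Their part in the changes of the lysosome genes was not tested. The number of rises was 1 without Vehicle 1, Vehicle 2 or SAHA 3, 2 without SAHA 1 or SAHA 2 and 3 without Vehicle 3. The shares of all genes called in these fits are not given here.

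A485 moved the genes in both directions. Relative to Vehicle, 17 of the 42 genes fell and 9 rose, against 24.2% and 21.4% of all genes tested, and the medians were -0.11 and -0.059 on the log2 scale. The falls lay in the soluble hydrolases and lipid-handling proteins (6 of 12 proteases, 3 of 5 glycosidases and 3 of 5 lipid-handling proteins) in 4 of 10 membrane proteins and in 1 of 5 regulators tested, while 2 of 5 V-ATPase subunits rose and none fell. Vehicle is again the control that the selection used.

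Psap showed the change with the smallest adjusted p, with 20.2, 31.8 and 29.4 CPM in A485 against 296, 282 and 229 CPM in Vehicle (log2 -3.31 ± 0.21, adjusted p = 3.87e-08). Npc2 was at 248, 306 and 282 CPM against 839.9, 914 and 861 CPM (log2 -1.64 ± 0.13, adjusted p = 3.97e-07). Grn, whose product progranulin is cut into granulins in the lysosome, was at 85.5, 105 and 70.5 CPM against 196, 232 and 218 CPM (log2 -1.31 ± 0.19, adjusted p = 7.20e-05). Each of these 3 lipid-handling genes was lower in all 3 A485 libraries than in any Vehicle library. Asah1, acid ceramidase, rose (129, 362 and 263 against 155, 111 and 151 CPM, log2 0.85 ± 0.28, adjusted p = 0.0211), although A485 1 lay within the range of Vehicle.

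Ctsc, a dipeptidyl peptidase that activates serine proteases, was at 16.4, 79.6 and 36.4 CPM against 384, 353 and 413 CPM (log2 -3.12 ± 0.41, adjusted p = 2.99e-05). Lgmn, an asparaginyl endopeptidase, was at 25.1, 61.5 and 28.9 CPM against 121, 115 and 130.3 CPM (log2 -1.67 ± 0.27, adjusted p = 0.000214). Ctsh was at 1.73, 3.62 and 4.12 CPM against 15.7, 18.7 and 14.4 CPM (log2 -2.37 ± 0.40, adjusted p = 0.000285). The 3 A485 libraries of these proteases spread widely, with replicate 1 the lowest, yet none reached a Vehicle library. Ctsa, Ctsd and Ctsz fell as well (log2 -0.75 ± 0.24, -1.55 ± 0.33 and -1.36 ± 0.26). Tpp1 rose, at 123, 238 and 159 CPM against 114, 69.5 and 88.3 CPM (log2 0.93 ± 0.28, adjusted p = 0.0153). The proteases Ctsb, Ctsf, Ctsk, Ctsl and Ctss did not pass the test.

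Of the glycosidases, Glb1 was at 48.96, 92.9 and 79.4 CPM in A485 against 212, 237 and 238 CPM (log2 -1.64 ± 0.23, adjusted p = 5.76e-05). Gla and Neu1 fell too (log2 -1.42 ± 0.25 and -0.61 ± 0.17), and Hexa and Man2b1 did not pass the test. Among the membrane proteins, Scarb2 was at 9.15, 13.4 and 12.9 CPM against 66.4, 77.5 and 69.7 CPM (log2 -2.59 ± 0.21, adjusted p = 3.60e-07), and Laptm4b at 30.4, 41.6 and 33.7 CPM against 149, 141 and 142 CPM (log2 -2.03 ± 0.19, adjusted p = 1.48e-06). Both fell in every A485 library. Cd63 (1677, 2409 and 1706 CPM, log2 -0.88 ± 0.15, adjusted p = 0.000328) and Laptm4a (log2 -0.76 ± 0.14) also fell.

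Cd68 rose from 13.00 ± 2.396 to 36.2 ± 16.3 CPM (log2 1.48 ± 0.28, adjusted p = 0.000633), as did Lamp1 (612 ± 67.5 to 1078 ± 312 CPM, log2 0.82 ± 0.19, adjusted p = 0.00327) and Mcoln1, the calcium channel of the lysosomal membrane (log2 0.81 ± 0.23). Gpnmb was at 3.47, 36.00 and 5.499 CPM in A485 against 3.51, 0 and 0 CPM in Vehicle (log2 3.66 ± 1.18, adjusted p = 0.0207). The 2 groups overlapped and A485 2 stood far above the rest, and the call was lost without A485 2, without Vehicle 2 or with a replicate block, with adjusted p between 1.69e-11 and 0.216 over the alternatives. Lamp2 and Laptm5 did not pass the test.

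The V-ATPase members Atp6v1a, the catalytic A subunit, and Atp6v0d1, the d subunit of the membrane sector, rose modestly (log2 0.62 ± 0.15 and 0.60 ± 0.14, adjusted p = 0.00452 and 0.00357), and Atp6v1c1, Atp6v1h and Atp6ap1 did not pass the test. Of 16 other V-ATPase subunits tested, 11 rose and 1 fell, beside 21.4% and 24.2% of all genes tested. Atp6v1f was at 642 ± 19.3 CPM against 229 ± 13.2 CPM (log2 1.49 ± 0.13, adjusted p = 7.58e-07), and Atp6v1d at 423 ± 38.6 CPM against 191 ± 23.1 CPM (log2 1.14 ± 0.14). The exception was Atp6v0a4, an isoform known from kidney and inner ear, at 6.18 ± 2.202 CPM against 90.05 ± 2.12 CPM (log2 -3.86 ± 0.27, adjusted p = 8.84e-08). With SAHA, 3 of the same 16 rose and 3 fell, the latter 1 without SAHA 1 or SAHA 2. Of all genes tested, 20.2% rose and 14.0% fell with SAHA.

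Of the regulators, Flcn rose with A485 from 17.1 ± 2.12 to 41.1 ± 12.6 CPM (log2 1.27 ± 0.25, adjusted p = 0.000875) and Sqstm1 fell (log2 -0.46 ± 0.14, adjusted p = 0.0147). Tfeb was at 20.7, 13.2 and 9.28 CPM against 21.03, 19.7 and 22.7 CPM, Tfe3 at 30.9, 17.5 and 22.3 against 26.8, 21.7 and 16.4 CPM and Mitf at 2.68, 1.09 and 0.516 against 1.29, 0 and 0.577 CPM, and none of the 3 passed the test. In the same libraries all 7 morula markers tested fell, their sum being 49.8 to 81.0 CPM in A485 against 957 to 1097 CPM in Vehicle, and their part in the changes of the lysosome genes was not tested. A485 1 and A485 2 pulled the count of rises apart, which was 15 without A485 1 and 5 without A485 2. The shares of all genes called in these 2 fits are not given here.

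**Figure D2:**
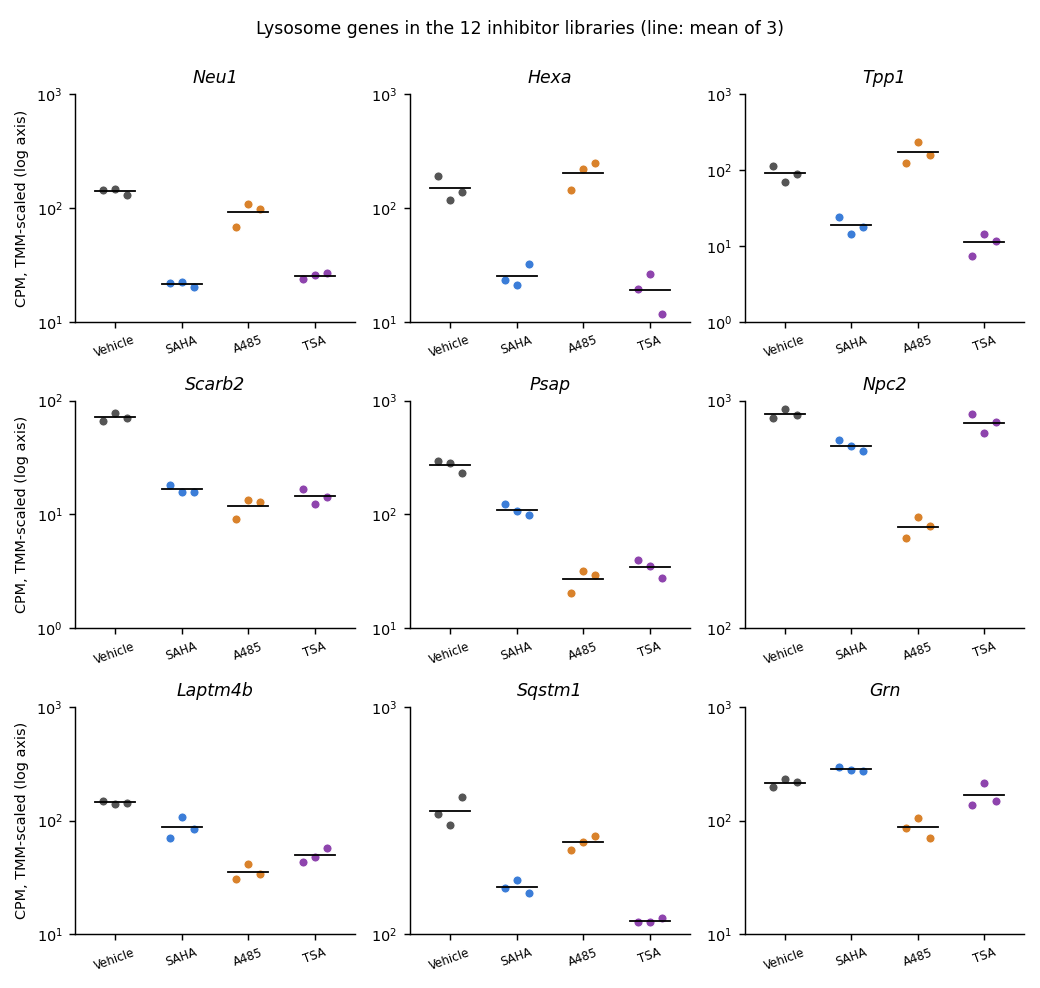
Levels of 9 lysosome genes in the 12 libraries of the inhibitor family, in TMM-scaled CPM on log axes, with a point for each library and a line for the mean of 3. Neu1, Hexa and Tpp1 are lower in SAHA and TSA than in A485, whereas Npc2, Laptm4b and Grn are lowest in A485.

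The direct comparison of SAHA with A485 is between groups that the selection did not use. Its filter, scaling and estimate of the spread still draw on all libraries of the family, Vehicle and TSA among them. Of the 42 genes, 14 were higher in SAHA and 14 were higher in A485 (edgeR adjusted p under 0.05), against 31.9% and 22.5% of all genes tested. The medians were -0.20 over these genes and 0.23 over all genes. By role, 5 of 12 proteases, 3 of 5 glycosidases and 3 of 5 lipid-handling genes were higher in SAHA, against 1, 2 and 1 higher in A485. Of 10 membrane proteins, 2 were higher in SAHA and 4 in A485, and of 5 regulators tested 1 and 2. Of 5 V-ATPase subunits tested, 4 were higher in A485 and none in SAHA. The levels, in the order of replicates, are those given above.

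Tpp1 and Hexa were lower in SAHA than in A485, with log2 differences of -3.21 ± 0.31 and -3.003 ± 0.31 (adjusted p = 1.45e-06 and 2.33e-06). Neu1 was lower in SAHA as well (log2 -2.10 ± 0.18, adjusted p = 5.31e-07), and so was Flcn (log2 -1.69 ± 0.25, adjusted p = 7.61e-05). For these 4 genes no SAHA library reached an A485 library. By adjusted p, the genes of at least 10 CPM higher in SAHA began with Psap (log2 2.01 ± 0.20, adjusted p = 2.06e-06), Npc2 (log2 1.18 ± 0.13, adjusted p = 5.58e-06) and Grn (log2 1.70 ± 0.19, adjusted p = 5.69e-06). The next were Laptm4a, at 227, 226 and 219 CPM in SAHA against 93.97, 106 and 96.4 CPM in A485 (log2 1.18 ± 0.14), Ctsz, a carboxypeptidase, at 100.1, 153 and 149 against 20.5, 44.1 and 32.05 CPM (log2 2.06 ± 0.27), and Laptm4b (log2 1.31 ± 0.19).

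Genes further higher in SAHA were Ctsc, Ctsl, Ctss, Lgmn, Gla, Glb1, Man2b1 and Tfeb, the last with a log2 difference of 1.31 ± 0.25 (adjusted p = 0.000524). Ctss entered the test only through the SAHA and TSA libraries. Genes further higher in A485 were Asah1, Lamp1, Cd68, Mcoln1, Gpnmb, Atp6v1a, Atp6v1h, Atp6v0d1, Atp6ap1 and Sqstm1. The call for Gpnmb (log2 -5.01 ± 1.33, adjusted p = 0.00551) was lost without A485 2. Scarb2 (0.49 ± 0.20), Cd63 (-0.17 ± 0.15) and Ctsa (-0.071 ± 0.24) showed log2 differences that did not pass the test, as did Ctsb, Ctsd, Ctsf, Ctsh, Ctsk, Npc1, Lamp2, Laptm5, Atp6v1c1, Tfe3 and Mitf.

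**Figure D3:**
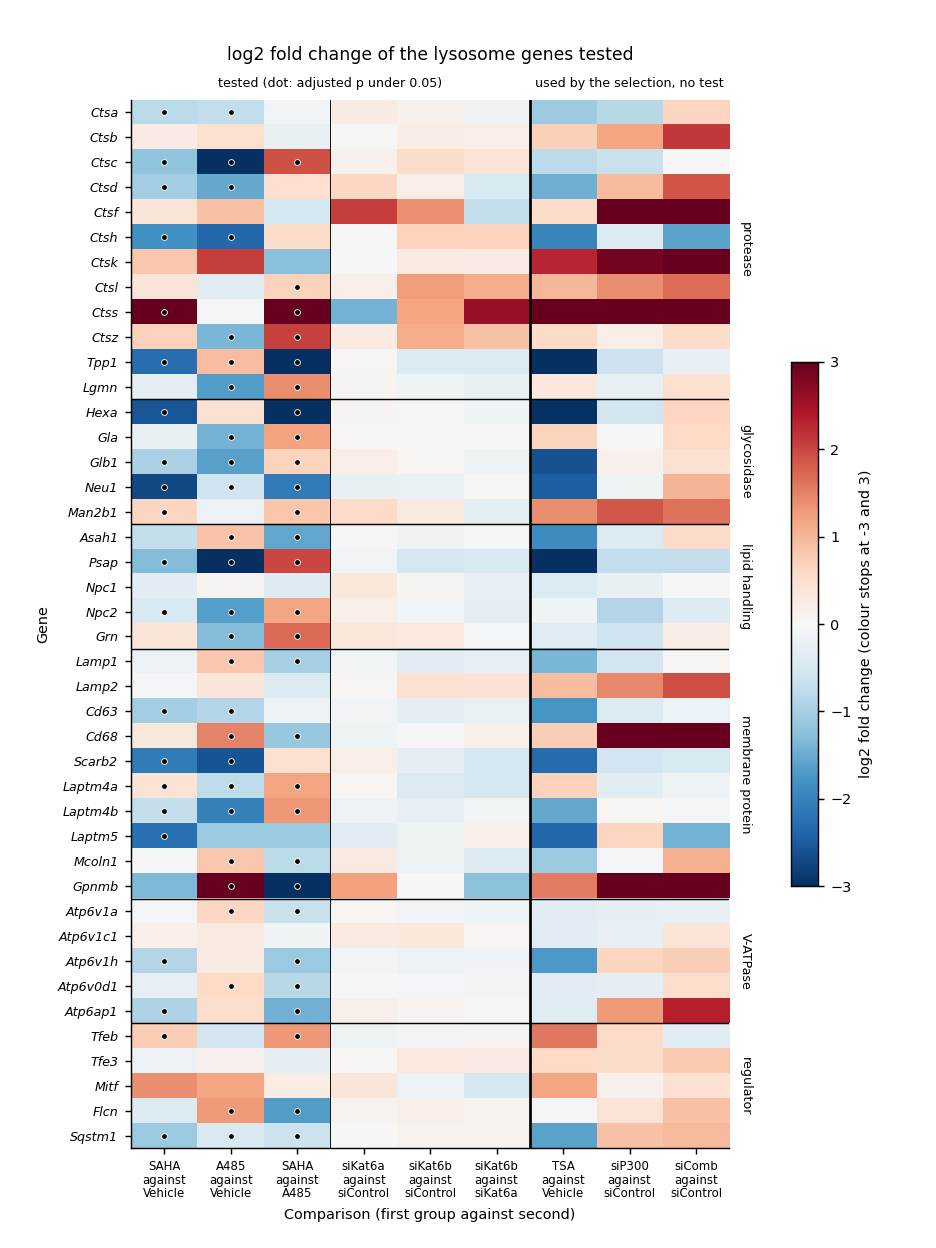
Log2 fold changes of the 42 lysosome genes tested (rows, by role) in 9 comparisons (columns), red for higher and blue for lower in the group named first, with colour stopping at -3 and 3. Dots mark calls in the tested comparisons on the left, and the 3 columns on the right are those on which the genes were selected.

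With TSA, the comparison by which some genes were chosen, 22 of the 42 genes had all 3 libraries below all 3 Vehicle libraries and 12 had all 3 above, and the same held for 31.9% and 36.1% of all genes tested. The values that follow describe the genes and are not tests. Tpp1 was at 7.38, 14.4 and 11.6 CPM, Hexa at 19.4, 26.4 and 11.6 CPM and Neu1 at 23.8, 25.9 and 26.6 CPM, all far below their Vehicle levels given above. The log2 differences from Vehicle were -3.02 ± 0.32, -2.96 ± 0.31 and -2.46 ± 0.18. Psap was at 39.4, 35.3 and 27.7 CPM (log2 -2.98 ± 0.21), Glb1 at 28.6, 46.5 and 36.96 CPM (log2 -2.62 ± 0.24) and Scarb2 at 16.7, 12.3 and 14.2 CPM (log2 -2.31 ± 0.21). Ctsh was at 2.46, 3.796 and 6.202 CPM (log2 -1.97 ± 0.40). The other genes below Vehicle in all libraries were Ctsa, Ctsc, Ctsd, Asah1, Npc1, Lamp1, Cd63, Laptm4b, Laptm5, Mcoln1, Atp6v1c1, Atp6v1h, Atp6v0d1, Atp6ap1 and Sqstm1.

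In the other direction, Tfeb was at 64.5, 58.3 and 66.5 CPM in TSA against 21.03, 19.7 and 22.7 CPM in Vehicle (log2 1.58 ± 0.25), and Man2b1 at 71.6, 62.8 and 48.1 against 21.8, 24.4 and 22.9 CPM (log2 1.40 ± 0.24). Ctss was at 15.6, 5.24 and 10.9 against 0, 0.362 and 1.06 CPM (log2 4.46 ± 0.86). The groups of these 3 genes were apart. Ctsb, Ctsk, Ctsl, Ctsz, Lgmn, Gla, Lamp2, Cd68 and Laptm4a were also above Vehicle in all libraries, with Ctsl at 1216, 1131 and 1093 CPM and Lamp2 at 312, 304 and 300.3 against 163, 164 and 159 CPM. The remaining 8 genes, Ctsf, Npc2, Grn, Gpnmb, Atp6v1a, Tfe3, Mitf and Flcn, overlapped with Vehicle. Gpnmb was at 1.37, 2.88 and 5.94 CPM and Tfe3 at 29.9, 44.4 and 24.3 CPM.

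SAHA and TSA share the hydroxamate group that binds the catalytic zinc of deacetylases, and were given at different doses, 500 nM and 50 nM, so their values are set side by side only. Neu1 averaged 21.4 ± 1.26 CPM in SAHA and 25.4 ± 1.48 CPM in TSA, and Scarb2 16.5 ± 1.45 and 14.4 ± 2.19 CPM. Lamp1 averaged 538 ± 66.3 CPM in SAHA and 236 ± 4.92 CPM in TSA, beside 612 ± 67.5 CPM in Vehicle. Tfeb averaged 35.7 ± 5.42 and 63.1 ± 4.32 CPM, and Npc2 632 ± 34.3 and 799.96 ± 76.2 CPM. The 2-cell markers summed to 13264 to 18455 CPM in TSA and the morula markers to 87.996 to 120.4 CPM, and their part in these values was not tested.

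With siP300, also used in the selection, 14 of the 42 genes had all 3 libraries above all siControl libraries and 11 had all 3 below, beside 26.2% and 21.7% of all genes tested. The median log2 fold change was 0.015 over the 42 genes and 0.12 over all genes. With siComb, 23 genes were above and 6 below, beside 26.5% and 25.0% of all genes, with medians of 0.56 and 0.093. Both share the siControl libraries, so their values are set side by side. Scaled by library size alone, which moves the median of all genes to 0.45 in siP300 and 0.35 in siComb, the counts were 15 above and 2 below in siP300 (Ctsa and Npc2; 35.3% and 12.9% of all genes) and 28 above and 3 below in siComb (Ctsh, Scarb2 and Laptm5; 34.7% and 17.4%). Where one of the 42 genes is given as below the controls in the paragraphs that follow, this holds under TMM scaling, and under library size alone only for those named here. Without the 4 libraries of high MERVL, 17 were above and 14 below in siP300 (31.6% and 26.1% of all genes) and 24 above and 9 below in siComb (29.8% and 27.3%), where 2 treated libraries separate more easily than 3. The siP300 and siComb libraries left in held 61.8 to 158 CPM of MERVL against 21.2 to 32.8 CPM in siControl. The 2-cell markers summed to 19.0 to 198 CPM in siP300 and 9.42 to 561 CPM in siComb against 3.90 to 6.25 CPM in siControl. The morula markers summed to 307 to 570 CPM in siP300 and 372 to 639 CPM in siComb against 1188 to 1388 CPM in siControl. The part of MERVL and of these markers in these values was not tested. The counts of lysosome genes come from values by which the genes were chosen and carry no test.

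Gpnmb (chr6:49036546-49070929 on GRCm38, GENCODE vM21) had the largest differences of all 42. It was at 27.8, 17.4 and 26.4 CPM in siP300 and 73.1, 133 and 75.5 CPM in siComb against 0, 0.211 and 0.813 CPM in siControl, the latter from 10 counts in all. The fitted log2 differences, 6.05 ± 0.66 and 8.02 ± 0.67, rest on those few control counts. Cd68 was at 22.8, 48.1 and 42.3 CPM and 63.6, 72.4 and 43.1 CPM against 3.66, 4.01 and 3.66 CPM (log2 3.32 ± 0.33 and 3.98 ± 0.33). Neither gene overlapped with the controls in either group. Both genes are abundant in macrophages. Summed over 12 macrophage and osteoclast markers, levels were 18.8 to 22.6 CPM in siP300 and 22.3 to 25.1 CPM in siComb. In siControl the sum was 17.4 to 19.9 CPM, so siComb lay above it in all libraries and siP300 overlapped. Itgam had no count in any group. Of the other markers, Ptprc, Tyrobp, C1qa and C1qb had no count in siP300, Tyrobp had none in siComb and C1qb had none in siControl. The part of such cells in the values of Gpnmb and Cd68 was not tested.

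Among other membrane and V-ATPase genes, Lamp2 was at 380.3, 357 and 354 CPM in siP300 and 446, 625 and 455 CPM in siComb against 137, 134 and 129 CPM (log2 1.45 ± 0.18 and 1.93 ± 0.18). Lamp1, its paralog, was at 445, 317 and 419.8 CPM and 632, 551 and 599.6 CPM against 520.3, 620.03 and 585 CPM (log2 -0.55 ± 0.17 and 0.047 ± 0.17). Lamp2 was thus above the controls in all 6 libraries, and Lamp1 was below them in siP300 and overlapped in siComb, whereas by library size alone it overlapped in siP300 and was above in siComb. Atp6ap1 was at 116, 65.3 and 95.8 CPM and 197, 206 and 169 CPM against 41.1, 37.97 and 34.8 CPM (log2 1.28 ± 0.20 and 2.33 ± 0.20). Atp6v1h was above the controls in both groups (log2 0.65 ± 0.15 and 0.74 ± 0.15). Atp6v1c1 and Atp6v0d1 were above in siComb and below in siP300, where the log2 differences of both, -0.25 ± 0.15 and -0.28 ± 0.14, turned to 0.067 and 0.043 when scaled by library size alone, and Atp6v1a overlapped.

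Among the proteases, Ctsb, a cysteine cathepsin, was at 253, 242 and 232 CPM in siP300 and 435, 524 and 432 CPM in siComb against 105, 119 and 95.4 CPM (log2 1.19 ± 0.19 and 2.12 ± 0.19). Ctsd, the main aspartic protease of the lysosome, was at 27.3, 11.8 and 17.9 CPM and 36.4, 34.3 and 38.8 CPM against 10.98, 11.4 and 7.42 CPM (log2 0.94 ± 0.28 and 1.88 ± 0.28). Ctsl was at 539.6, 1051 and 589 CPM and 668, 1182 and 782 CPM against 266, 349 and 211 CPM (log2 1.40 ± 0.33 and 1.67 ± 0.33). All 3 were above the controls in both groups, as were the scarce Ctsf and Ctsk. Ctss was above them in siComb and overlapped in siP300. Ctsh, on the contrary, was at 4.48, 8.34 and 5.57 CPM in siComb against 21.97, 17.9 and 16.5 CPM (log2 -1.62 ± 0.30), and overlapped in siP300. Ctsa was below the controls in siP300 (195, 199 and 179.9 against 383, 349 and 284 CPM, log2 -0.82 ± 0.16) and above them in siComb (619, 457 and 518 CPM, log2 0.65 ± 0.16).

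Ctsc was below the controls in siP300, at 124, 184 and 93.5 CPM against 215, 197 and 227 CPM (log2 -0.67 ± 0.26). Tpp1 was below in both groups (log2 -0.61 ± 0.18 in siP300 and -0.26 ± 0.18 in siComb, the latter 0.0083 by library size alone), and Ctsz and Lgmn overlapped. Of the glycosidases, Man2b1 was at 28.2, 56.4 and 66.04 CPM in siP300 and 46.6, 50.8 and 31.9 CPM in siComb against 13.4, 13.9 and 14.2 CPM (log2 1.86 ± 0.31 and 1.64 ± 0.31). Its 6 treated libraries all exceeded the controls. Hexa, Gla and Neu1 were above in siComb, and Hexa was below in siP300 (log2 -0.56 ± 0.18). Glb1 overlapped in both.

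Npc2 was at 434, 434 and 431 CPM in siP300 and 596, 631 and 619 CPM in siComb against 818, 844 and 733 CPM (log2 -0.88 ± 0.14 and -0.38 ± 0.14), below the controls in both. Psap was at 224, 152 and 223 CPM in siComb against 274, 417 and 293 CPM (log2 -0.71 ± 0.33) and overlapped in siP300. Asah1 was below in siP300 and above in siComb (log2 -0.40 ± 0.20 and 0.58 ± 0.20). Npc1 and Grn overlapped in both groups. Scarb2 was below in both groups (log2 -0.58 ± 0.15 and -0.45 ± 0.15), Laptm4a below in siP300, Laptm5 below in siComb (8.68, 4.37 and 6.34 against 17.4, 15.8 and 18.5 CPM) and Mcoln1 above in siComb (24.5 ± 5.16 against 11.7 ± 2.61 CPM, log2 1.06 ± 0.25). Cd63 and Laptm4b overlapped in both groups.

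Of the regulators, Sqstm1 was at 276, 182 and 192 CPM in siP300 and 218, 224 and 251 CPM in siComb against 144, 114 and 97.9 CPM (log2 0.87 ± 0.21 and 0.96 ± 0.21), above the controls in both. Flcn was above in both too (log2 0.42 ± 0.23 and 0.87 ± 0.23). Tfeb was at 34.3, 58.1 and 30.5 CPM in siP300 and 18.9, 22.4 and 23.7 CPM in siComb against 23.6, 30.4 and 28.4 CPM, above the controls in siP300 and overlapping in siComb. Tfe3 was at 26.9, 14.1 and 28.5 CPM and 28.1, 24.8 and 28.1 CPM against 18.95, 11.4 and 16.9 CPM, above the controls in siComb. Mitf stayed between 1.04 and 4.77 CPM in these 9 libraries, and Tfec was under 0.5 CPM in all of them.

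**Figure D4:**
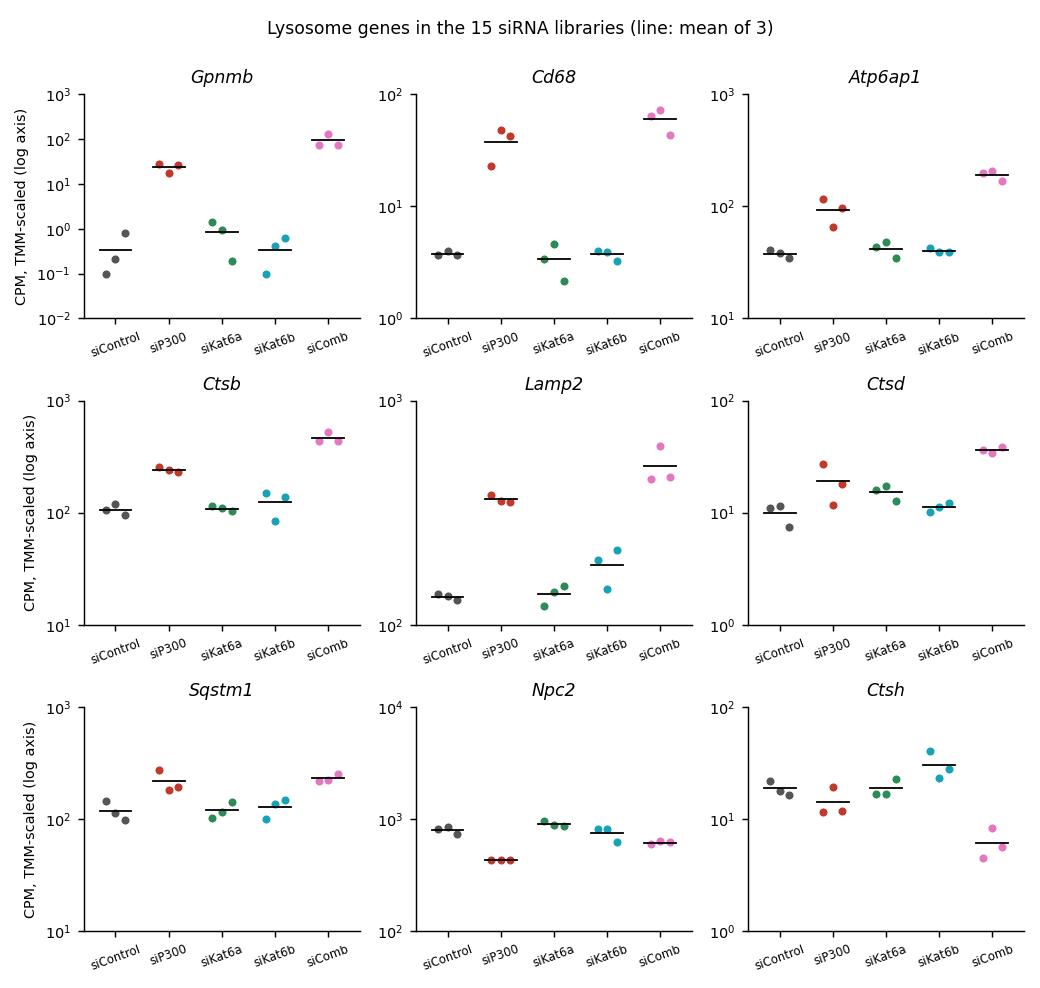
Levels of 9 lysosome genes in the 15 libraries of the siRNA family, in TMM-scaled CPM on log axes, with a point for each library, a line for the mean of 3 and values under 0.1 drawn at 0.1. Gpnmb, Cd68, Atp6ap1, Ctsb and Lamp2 are high in siP300 and, by their means, higher in siComb, while Npc2 is low in both and Ctsh is low in siComb.

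Genes of the same compartment outside the 44 are given for comparison. Over all genes tested, 20.2% rose and 14.0% fell with SAHA, and 21.4% rose and 24.2% fell with A485. Of all genes, 26.5% were above and 25.0% below all siControl libraries in siComb, and 26.2% and 21.7% in siP300. Of 29 other lysosomal hydrolases tested, 4 rose and 8 fell with SAHA and 8 rose and 6 fell with A485, among them Smpd1, acid sphingomyelinase, at 33.5 ± 7.51 CPM against 273 ± 25.8 CPM with SAHA (log2 -3.02 ± 0.23, adjusted p = 6.89e-07) and log2 -2.46 ± 0.22 with A485, and Gm2a, the GM2 activator, at 75.7 ± 34.8 CPM against 1131 ± 187 CPM with A485 (log2 -3.90 ± 0.29, adjusted p = 1.53e-07). With siComb, 14 of the 29 were above all siControl libraries and 3 below, and with siP300 11 and 4. Gusb, beta-glucuronidase, was at 86.6 ± 24.3 CPM against 18.2 ± 3.67 CPM in siComb (log2 2.25 ± 0.23). Of 16 other V-ATPase subunits, 10 were above and 2 below in siComb, and 7 above and 4 below in siP300. Tcirg1, the a3 subunit known from osteoclasts and lysosomes, was at 21.5 ± 1.93 CPM against 4.81 ± 1.22 CPM in siComb (log2 2.16 ± 0.30).

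Of 18 other lysosomal membrane proteins tested, none rose and 6 fell with SAHA, and 6 rose and 3 fell with A485, with the count of falls at 1 without A485 3. Spns1, a lysosomal lipid transporter, was among those that fell, at 36.4 ± 4.66 CPM against 155 ± 3.85 CPM (log2 -2.09 ± 0.24, adjusted p = 9.59e-06), and Ctns, the cystine exporter, among those that rose, at 70.4 ± 37.8 CPM against 13.7 ± 2.69 CPM (log2 2.36 ± 0.36, adjusted p = 0.000111). The mannose 6-phosphate sorting genes, which address hydrolases to the lysosome, had 4 of 13 fall with SAHA and none rise, and 5 fall and 3 rise with A485. Gnptab, the enzyme that starts the tag, fell with SAHA and A485 (log2 -1.24 ± 0.19 and -2.38 ± 0.20, adjusted p = 0.000206 and 4.64e-07). Of 20 genes of the Rag GTPases and mTORC1, 4 rose and 6 fell with SAHA and 10 rose and 4 fell with A485. Rptor, the raptor subunit of mTORC1, was at 207 ± 33.6 CPM against 40.01 ± 5.94 CPM with SAHA (log2 2.37 ± 0.21, adjusted p = 2.11e-06) and fell with A485 (log2 -1.62 ± 0.21). Of 26 autophagy genes, 5 rose and 4 fell with SAHA and 4 rose and 10 fell with A485, and Gabarapl2 was at 203 ± 2.34 CPM against 2325 ± 146 CPM with A485 (log2 -3.52 ± 0.16, adjusted p = 2.73e-09). In siComb, 6 of 17 other lysosomal membrane proteins were above siControl and 5 below, and in siP300 5 and 4. For 13 sorting genes the numbers were 7 and 5, and 3 and 4. For 21 Rag and mTORC1 genes they were 9 and 6, and 6 and 6. For 26 autophagy genes they were 10 and 7, and 6 and 9. For 7 cathepsin inhibitors they were 4 and 1, and 2 and 1.

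Of 7 cathepsin inhibitors, 1 rose and 2 fell with SAHA and the same numbers with A485, and Cstb, cystatin B, was at 411 ± 20.3 CPM against 672 ± 99.1 CPM with SAHA and at 1225 ± 28.2 CPM against 672 ± 99.1 CPM with A485 (log2 -0.71 ± 0.13 and 0.87 ± 0.13, adjusted p = 0.00096 and 0.00011). Without Vehicle 1, Vehicle 3, SAHA 1 or SAHA 3 no inhibitor rose with SAHA, and without A485 1 the rises with A485 numbered 2. Of 6 pigment cell targets of Mitf tested, Dct rose and Rab38 fell with each inhibitor (Rab38 log2 -1.32 ± 0.36 with SAHA and -2.98 ± 0.39 with A485). The call of Dct with A485 depended on Vehicle 2 and A485 1 and that of Rab38 with SAHA on Vehicle 2 and SAHA 3. Absorptive endoderm markers, of a tissue rich in lysosomes, summed to 967 to 1124 CPM in Vehicle, 511 to 578 CPM in SAHA, 89.2 to 222 CPM in A485 and 119 to 262 CPM in TSA. They summed to 925 to 1025 CPM in siControl, 401 to 478 CPM in siP300 and 356 to 519 CPM in siComb. Cumulus and granulosa markers summed to 39.3 to 52.8 CPM in siP300 and 43.8 to 50.9 CPM in siComb against 10.98 to 18.8 CPM in siControl. Markers of the oviduct and stroma reached at most 8.42 CPM and those of placental trophoblast at most 70.2 CPM in any library. The part of any of these in the results on the lysosome genes was not tested.

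After siKat6a and siKat6b no lysosome gene passed the test. Relative to siControl, 0 of 42 genes rose or fell with either (edgeR, 0.0% of all genes rose and 0.0% fell with siKat6a, 0.0104% and 0.0104% with siKat6b). The siControl libraries also served in the selection, through their comparison with siP300 and siComb. Gpnmb, Ctsf, Ctsk and Ctss had at most 13 counts in any library of siControl, siKat6a or siKat6b. They entered the test only through siP300 and siComb, so their lack of a call says little. At an unadjusted p under 0.05 there were 2 genes with siKat6a (Ctsd and Ctsf) and 6 with siKat6b (Ctsh, Ctsl, Ctsz, Tpp1, Lamp2 and Laptm4a), beside 2.14% and 10.4% of all genes. DESeq2 called 0 with siKat6a and 2, Ctsl and Ctsz, with siKat6b, beside 2 and 237 of the 19180 genes tested. Between siKat6b and siKat6a, whose libraries the selection did not use, edgeR called 0 of 42 genes, beside 0.00521% of all genes in each direction. The fit behind this comparison still spans all libraries of the family. At an unadjusted p under 0.05 there were 7 genes (7.63% of all genes). DESeq2 called 0 of the 42, beside 101 of all genes. Gpnmb was at 1.43, 0.927 and 0.196 CPM in siKat6a and 0, 0.412 and 0.608 CPM in siKat6b, and Cd68 at 3.42, 4.63 and 2.15 and 4.04, 3.91 and 3.24 CPM, all overlapping with siControl. Tfeb was at 25.5, 23.98 and 24.6 and 30.05, 20.9 and 27.2 CPM, and Tfe3 at 10.4, 16.9 and 21.1 and 17.04, 16.7 and 23.7 CPM.

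The wide spread within siKat6b followed single libraries. Ctsl was at 769.6, 323 and 879 CPM in siKat6b against 345, 266 and 303 CPM in siKat6a and 266, 349 and 211 CPM in siControl (log2 1.25 ± 0.33 against siControl, adjusted p = 0.191). It was high in siKat6b 1 and 3 and at the level of the controls in siKat6b 2. These 2 libraries are the ones in which MERVL was high, and within siP300 and siComb the library with most MERVL, replicate 2 in both, also held the most Ctsl. Without the 4 libraries of high MERVL, which leaves 1 library of siKat6b, the log2 difference of Ctsl from siControl was 0.23 in siKat6b, 1.03 in siP300 and 1.40 in siComb, against 1.25, 1.40 and 1.67 with them.

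Ctsz was at 136, 86.8 and 135 CPM in siKat6b, 56.9, 83.5 and 49.4 CPM in siP300 and 63.4, 117 and 61.5 CPM in siComb against 62.02, 67.3 and 36.7 CPM in siControl, again highest in each group in a library of high MERVL. Psap was at 295, 81.8 and 212 CPM in siP300 and 224, 152 and 223 CPM in siComb, lowest in replicate 2 of both, but showed no such spread in siKat6b (208, 223 and 247 CPM). Glb1 was at 235, 77.6 and 151 and 225, 130.3 and 231 CPM, also lowest in replicate 2, against 142, 171 and 125 CPM in siKat6b. These 4 genes were singled out after their values were seen, and the part of MERVL in these values was not tested.

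**Figure D5:**
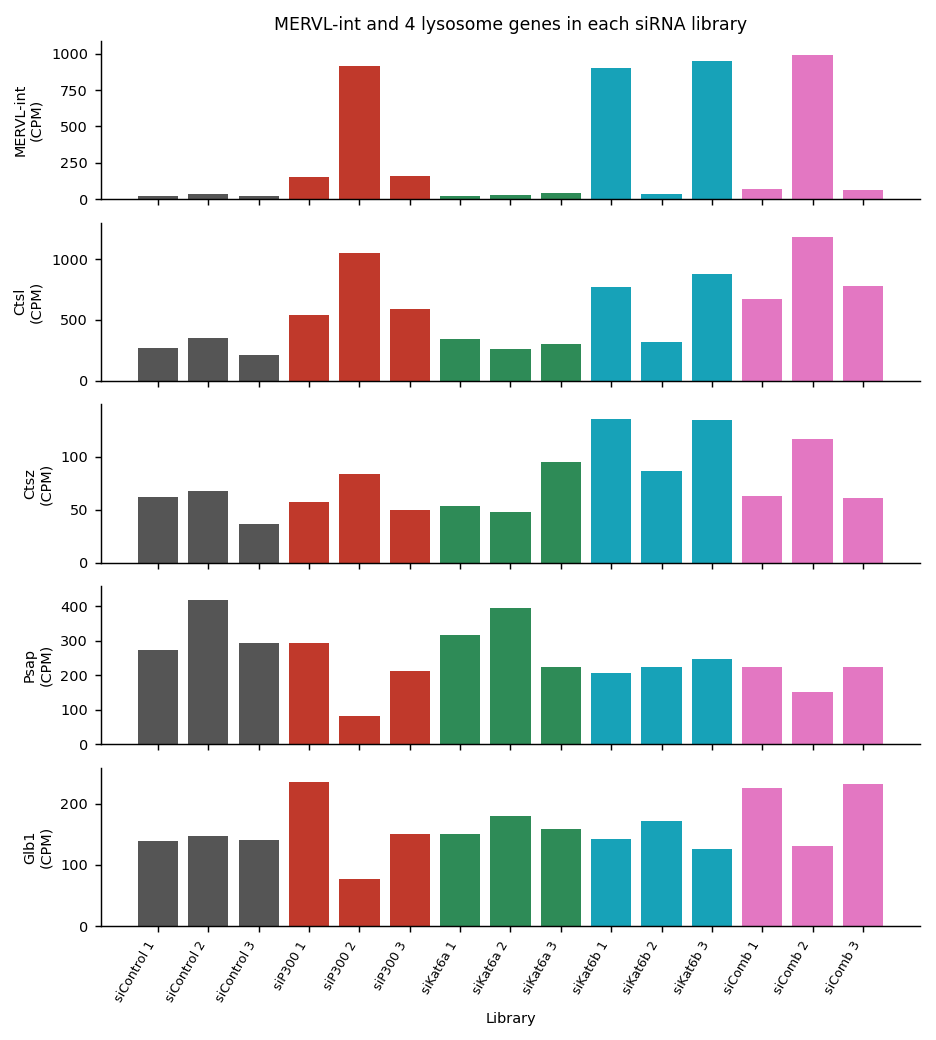
MERVL-int and 4 lysosome genes in each of the 15 siRNA libraries, as bars in CPM from 0, coloured by group. Ctsl is highest in siP300 2, siKat6b 1 and 3 and siComb 2 within their groups, the libraries with 899 to 990 CPM of MERVL-int, and Psap and Glb1 are lowest in siP300 2 and siComb 2.

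A485 inhibits p300 and CBP, and siP300 is named for p300, although Ep300 in siP300 3 lay within the range of siControl. The 2 comparisons share no library, and siP300 was used in the selection. Of the 42 genes, 11 were higher in both against their own control, 12 lower in both, 9 higher with A485 and lower with siP300, and 10 the reverse, so that the sign was the same for 54.8% of them, beside 63.3% of 17192 genes tested in both families. Cd68 was higher in both (log2 1.48 ± 0.28 and 3.32 ± 0.33) and Npc2 lower in both (log2 -1.64 ± 0.13 and -0.88 ± 0.14). Lamp1 differed in sign (log2 0.82 ± 0.19 and -0.55 ± 0.17), as did Ctsd (log2 -1.55 ± 0.33 and 0.94 ± 0.28). The treatments differed in length, from E2.5 for A485 and from E0.5 for siP300.

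Genes with and without the E-box TCACGTG in their promoter are set side by side for the 35 tested genes with a RefSeq promoter. The 9 genes with it had a median log2 fold change of -0.24 with SAHA, with 3 of them called lower, and the 26 without it had -0.30, with 11 called lower and 4 higher. With A485, 4 of the 9 rose (Lamp1, Mcoln1, Atp6v1a and Atp6v0d1) and 5 fell (Ctsa, Ctsd, Gla, Glb1 and Lgmn). Of the 26 without the motif, 4 rose and 10 fell with A485, and the medians were -0.75 with the motif and -0.24 without it. Over all genes tested, 20.2% rose and 14.0% fell with SAHA, and 21.4% rose and 24.2% fell with A485. The medians were 0.52 and 0.71 with siComb, -0.22 and 0.49 with siP300 and -1.08 and 0.24 with TSA, in comparisons on which the genes were selected. Lamp1, with 4 E-boxes, showed log2 fold changes of -0.19 with SAHA, 0.82 with A485, -1.38 with TSA and 0.047 with siComb.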

How the data were processed

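RNA of 27 pools of mouse morulae was measured. The authors deposited a raw count for each of 55367 genes and 2 MERVL features. STAR 2.7.11a, featureCounts, Subread 2.0.6, MultiQC, Scanpy 1.8.2 and the builds mm10 and GRCh38 are listed, without roles, per the submitters' processing notes. The annotation release, strandedness and counting of pairs were not given in the sources used here. Even numbers made up 84.5% of the nonzero counts, so a count may stand for 1 read of a pair. Of the 44 genes, 17 overlap another gene in GENCODE vM21, from which lengths were taken, and without strand their reads cannot be told apart.

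Groups came from sample titles. The MERVL rows stayed out of library sizes and tests. Counts were tested with edgeR 4.0.16 (R 4.3.3): quasi-likelihood fit, TMM scaling, filterByExpr with a minimum count of 10, 1 fit per family, Benjamini-Hochberg adjustment over all genes tested (18297 and 19180), threshold 0.05. The standard error is the log2 fold change divided by the square root of F. The script was tested on simulated data. Doses are those of the file headers. Library totals were 7557591 to 11988857. Means carry SD over 3 libraries. Levels are scaled separately in each family, except those per kilobase and of MERVL, which are relative to library size alone.

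The members, the other gene lists and the tests were chosen with earlier results of these data known. Values in every library are given for up to 10 genes per comparison: those with the smallest adjusted p and a mean of at least 10 CPM in 1 group, or, where the selection used the comparison, up to 7 with the largest fold in its direction and up to 3 in the other whose groups do not overlap. The MiT factors and Gpnmb are added, and further genes were given by library after their values were seen. Of other lists, up to 3 genes per comparison are named. Alternatives were DESeq2 1.42.0, its size factors in edgeR, library size alone, no filter, a filter of 5 CPM in 3 libraries, a replicate block, halved counts, a fit of the 2 groups only and leaving out libraries. Motifs were searched by exact letters in RefSeq promoters. Python 3.11.15 with pandas 2.3.3 and matplotlib 3.10.9 made tables and figures.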

Additional observations from a re-analysis of the deposited data

How the results depend on the processing

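Of the genes called, 13 of 21 with SAHA, 19 of 26 with A485 and 25 of 28 between SAHA and A485 kept their call under every alternative run, and none turned its direction. Genes that lost the call under at least 1 were Ctsa, Ctsc, Ctsd, Man2b1, Npc2, Laptm4a, Laptm5 and Tfeb with SAHA, Ctsa, Tpp1, Neu1, Asah1, Mcoln1, Gpnmb and Sqstm1 with A485, and Glb1, Mcoln1 and Gpnmb between them, most often by leaving out 1 library, which leaves fewer samples. The rises with SAHA numbered 7 in a fit of the 2 groups only and 1 to 3 with a library left out, and those with A485 5 to 15. For these and other counts of calls under alternatives, the share of all genes called in the same fit is mostly not given. Such counts are thus not results on the lysosome genes alone. With siKat6b, 2 genes rose without a filter, against siControl and against siKat6a alike, 2 by DESeq2 against siControl, and 0 to 1 with a library left out in both. Scaled by library size alone, the genes below siControl in all libraries numbered 2 in siP300 and 3 in siComb, and Atp6v1c1 (0.067) and Atp6v0d1 (0.043) in siP300 and Tpp1 (0.0083) in siComb turned their sign. That scaling moves the median of all genes from 0.12 to 0.45 in siP300, from 0.093 to 0.35 in siComb and from 0.025 to 0.13 in siKat6b. The medians of the 42 genes were then 0.34 in siP300, 0.82 in siComb, 0.12 in siKat6b and -0.012 for siKat6b against siKat6a. With DESeq2's size factors the median with TSA was -0.20. With a library left out it ran from 0.040 to 0.13 for siKat6a and from -0.16 to -0.056 for siKat6b against siKat6a. The cause was not tested. Replicate numbers did not pair the libraries (correlations of same-numbered deviations between -0.040 and 0.15 in the inhibitor family and between -0.35 and 0.36 in the siRNA family). With a replicate block, 5 rose and 17 fell with SAHA, 8 and 17 with A485, 14 and 14 between them, and 0 after siKat6a or siKat6b; Gpnmb with A485 then missed the threshold (adjusted p = 0.0795), Ctsz with SAHA passed it (adjusted p = 0.0101), and no other call changed. Scarce genes such as Ctsk and Tfec rest on few counts.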
